A study of Mus musculus with 4 samples.

Results

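Mitochondrial ribosomal protein genes are the nuclear genes for the protein subunits of the ribosome that works inside mitochondria. They were taken as every gene whose name begins with Mrpl or Mrps followed by a digit, leaving out the 5 names that hold "-ps" (pseudogene copies), with the values of a gene's transcripts summed by gene identifier. This rule found 77 of the 47729 genes in the deposited table, 48 with large-subunit names (Mrpl) and 29 with small-subunit names (Mrps). Total RNA had been sequenced from sorted neutrophils, taken from bone marrow and spleen, of BALB/c SKG mice 8 weeks after curdlan. SKG mice carry a mutation of the T cell kinase Zap70 and develop arthritis and spondyloarthritis-like disease after curdlan, a fungal beta-glucan. The groups were 2 libraries from wild-type SKG mice and 2 from Mif -/- (Mif KO) SKG mice, which lack the cytokine macrophage migration inhibitory factor. Both groups carried the SKG background and both had received curdlan, so no uninjected and no non-SKG animals enter the comparison. The labels do not give the animals' age, how many animals a library holds or whether the replicates were separate animals. Every p below therefore measures only the spread between these libraries, which may be technical.

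The mitochondrial ribosome makes a small set of proteins, all of them membrane subunits of oxidative phosphorylation encoded by mitochondrial DNA. Its ribosomal RNAs come from mitochondrial DNA, whereas all of its proteins are encoded in the nucleus, made in the cytosol and imported. The small subunit binds the messenger RNA and decodes it, and the large subunit joins the amino acids and lets the new protein out through an exit tunnel beside the inner membrane. Some subunit proteins have bacterial counterparts and others are found only in mitochondrial ribosomes. Mature neutrophils are known for few mitochondria and for energy drawn mainly from glycolysis. The comparison asks whether the level of these genes in neutrophils differed with Mif genotype.

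Expression is given as FPKM (fragments per kilobase of transcript, scaled to the mapped fragments of the library), a level per transcript length. The steps between low FPKM values give a relative depth of 1.23 and 1 for wild-type replicates 1 and 2, and of 5.28 and 4.83 for knockout replicates 1 and 2. By their run names, lane 2 held both wild-type and lane 1 both knockout libraries, and neither lane nor depth can be told apart from genotype. The table lists Mif at 0.882 FPKM in wild-type replicate 1, at 2.88 FPKM in replicate 2, and at 0 in both knockout libraries. The 16 neutrophil marker symbols summed to between 110433 and 116396 FPKM in every library, mostly from S100a8 and S100a9. S100a8 stood at 41370 and 38838 FPKM in wild type against 35980 and 36080 in the knockout. Ly6g, the usual surface marker, was at 519 and 491 FPKM against 918 and 936. Of the 15 tested entries of that list, 9 were higher and 6 lower in the knockout on average. B and plasma cell markers summed to 196 and 159 FPKM in wild type against 35.7 and 41.3 in the knockout. Immunoglobulin genes and Jchain made up 99.2% to 99.6% of that sum, and the other markers of the list together were at 0.809 and 1.12 FPKM in wild type against 0.296 and 0.331. Erythroid markers summed to 5.03 and 20.6 against 16.8 and 16.6 FPKM, lowest in wild-type replicate 1. Monocyte and macrophage markers (10 genes) summed to 47.6 and 64.3 against 54.5 and 61.2 FPKM, also lowest there. Most of that sum came from Csf1r, at 23.7 and 31.3 against 24.5 and 27.3 FPKM, and Cd68, at 14.8 and 16.3 against 14.8 and 16.5. C1qa, at 1.69 and 3.10 against 3.23 and 3.43 FPKM, was the only tested marker of that list whose groups did not overlap.

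All 77 genes were listed above 0 in every library, and together they made up a small share of the messenger RNA. Their levels summed to 448 FPKM in wild-type replicate 1 and 499 in replicate 2, and to 493 and 510 in the knockout. As a share of all FPKM from protein-coding genes this was 0.113% and 0.124% in wild type against 0.122% and 0.123% in the knockout. Wild-type replicate 1 was thus the lowest library, while the sum of wild-type replicate 2 lay between those of the knockout libraries. The genes with large-subunit names summed to 323, 356, 354 and 371 FPKM in wild-type replicates 1 and 2 and knockout replicates 1 and 2. Those with small-subunit names summed to 126, 143, 139 and 139 FPKM in the same order, in which values are given throughout. In bulk RNA, fewer cells of a type and less RNA per cell cannot be told apart.

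A single gene, Mrpl33, supplied the largest part of the summed level. Mrpl33, a small protein of the large subunit with a bacterial counterpart, stood at 121, 131, 119 and 131 FPKM, which was 27.0%, 26.3%, 24.1% and 25.7% of the sum. Mrps21, a small-subunit protein, came next at 42.1, 43.9, 42.3 and 41.9 FPKM. The groups overlapped for Mrpl33, and for Mrps21 the lowest wild-type library lay between the knockout libraries. Next came Mrpl14, at 14.9, 17.9, 19.6 and 19.3 FPKM. Mrpl24, which lies by the exit tunnel, stood at 15.2, 20.2, 15.02 and 16.8 FPKM. Mrps18c, the S18 paralogue that takes the place of bacterial S18, stood at 14.5, 16.6, 17.4 and 13.9 FPKM. Among these, only Mrpl14 had both knockout libraries above both wild-type libraries. Averaged over the 4 libraries, 10 genes lay at 10 FPKM or more, 55 between 1 and 10, and 12 under 1.

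The RNA levels of the subunits of this particle thus spread from 0.0850 FPKM for Mrps6 to 131 FPKM for Mrpl33. At the low end, Mrps6 was listed at 0.172, 0.114, 0.0850 and 0.167 FPKM and Mrpl38 at 0.279, 0.207, 0.275 and 0.356. Mrps2, Mrps27 and Mrpl11 completed the 5 lowest, between 0.264 and 0.618 FPKM over all their libraries. Both ends of the range held genes of both subunits. A test was run on the 65 genes that reached a mean of 1 FPKM in a genotype, and their median level was 3.62, 3.78, 3.99 and 3.95 FPKM. The same median over the 8444 protein-coding genes at that level was 8.64, 9.02, 9.03 and 9.35 FPKM, so the mitochondrial ribosomal protein genes lay below it in each library. Their most abundant transcripts were short, with a median of 1197 nucleotides and 5 exons against 2908.5 nucleotides and 9 exons for protein-coding genes tested.

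**Figure D1:**
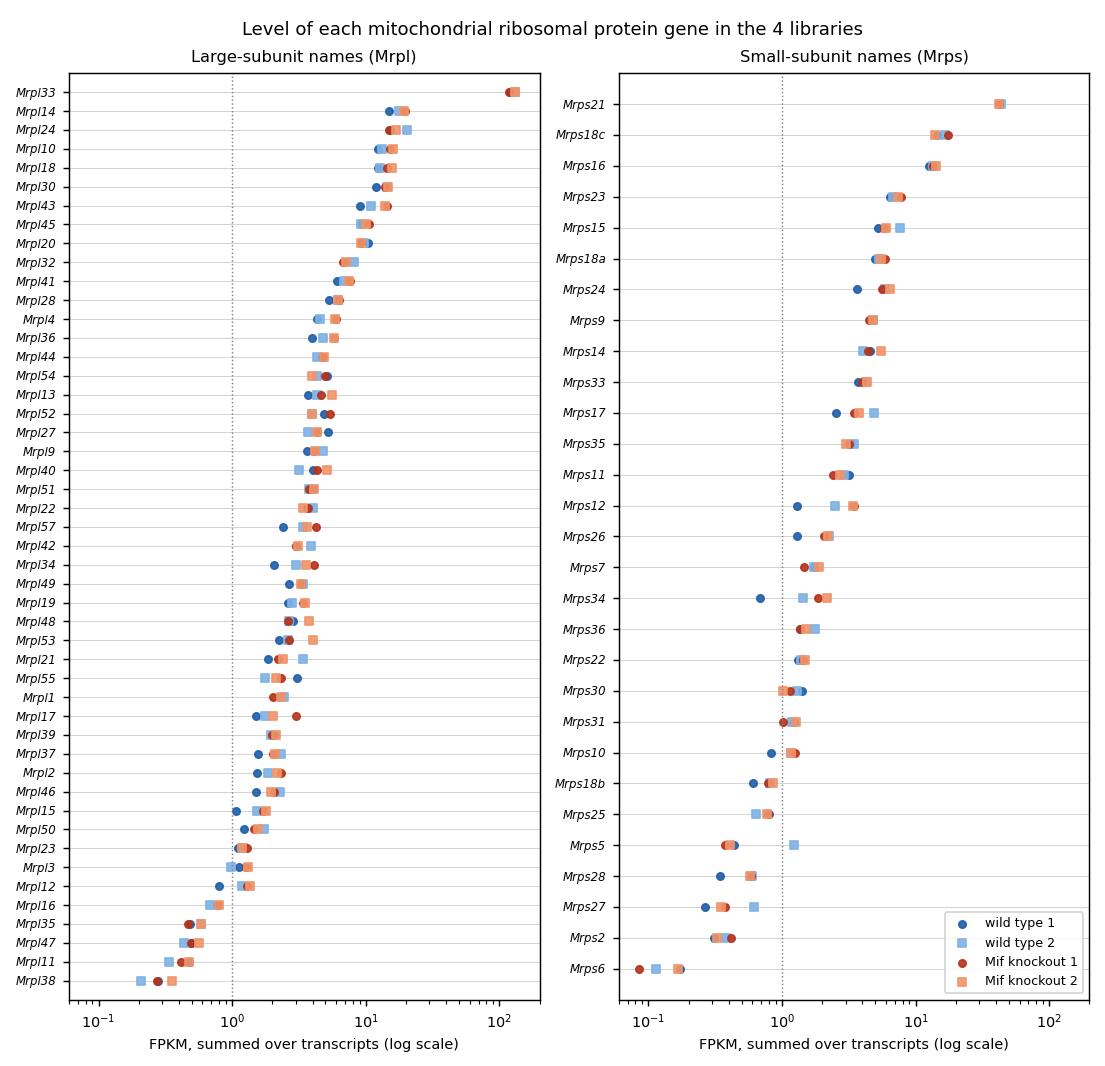
Level of each of the 77 mitochondrial ribosomal protein genes in each library, as FPKM on a log axis, with 48 large-subunit names on the left and 29 small-subunit names on the right. Each point is a library, the dotted line marks 1 FPKM, and Mrpl33 at 119 to 131 FPKM and Mrps21 at 41.9 to 43.9 FPKM stand above the rest.

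Promoter sequences are given here because NRF1, GABP and YY1, known regulators of nuclear genes for mitochondrial proteins, bind short defined words near gene starts. RefSeq's table on GRCm38.p6 gives the 250 bases before to 50 bases after the start of 68 of the 77 genes. Mrpl4, Mrpl13, Mrpl15, Mrpl19, Mrpl38, Mrpl54, Mrps28, Mrps34 and Mrps35 had no entry. Each word was searched on both strands. The core bound by ETS factors such as GABP, CCGGAAG, was in 24 of the 68 promoters (35.3%), against 9.25% of all 27025 promoters and 22.4% of those of 6557 protein-coding genes tested. The following 5 stretches are the 150 bases before the start, with matches on either strand to the ETS, NRF1, YY1 and CCAAT words in capitals. Matches to the other words, such as the SP1 box, are left in lower case. They come from Mrpl43, Mrpl34 and Mrps12, among the genes with the largest differences between genotypes, from Mrps27, among the lowest genes, and from Mrpl9, which holds the NRF1 word on both strands.
Mrpl43: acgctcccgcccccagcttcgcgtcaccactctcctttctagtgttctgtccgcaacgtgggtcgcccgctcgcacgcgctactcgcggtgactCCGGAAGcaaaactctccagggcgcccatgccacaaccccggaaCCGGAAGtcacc
Mrpl34: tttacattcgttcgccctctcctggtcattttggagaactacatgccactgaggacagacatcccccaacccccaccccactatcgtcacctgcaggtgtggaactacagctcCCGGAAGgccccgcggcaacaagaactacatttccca
Mrps27: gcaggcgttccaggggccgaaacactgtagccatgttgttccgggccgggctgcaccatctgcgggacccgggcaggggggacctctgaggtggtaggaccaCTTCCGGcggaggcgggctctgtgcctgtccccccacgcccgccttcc
Mrps12: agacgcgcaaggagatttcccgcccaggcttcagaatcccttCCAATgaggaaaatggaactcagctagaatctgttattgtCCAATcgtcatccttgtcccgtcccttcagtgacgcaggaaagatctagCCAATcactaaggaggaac
Mrpl9: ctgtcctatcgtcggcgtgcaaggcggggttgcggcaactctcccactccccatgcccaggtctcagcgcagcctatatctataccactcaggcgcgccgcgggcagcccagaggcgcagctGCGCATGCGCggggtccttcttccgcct

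The capitals mark the ETS core in Mrpl43 (chr19:45006443-45006592, minus strand), in Mrpl34 (chr8:71464776-71464925, plus strand) and, on the opposite strand, in Mrps27 (chr13:99344636-99344785, plus strand). In Mrps12 (chr7:28741822-28741971, minus strand) they mark the CCAAT box of NF-Y, and in Mrpl9 (chr3:94443186-94443335, plus strand) the NRF1 word on both strands, which together form a palindrome. Mrpl43 held the ETS core at 56 and 12 bases before the start and Mrpl34 at 37 bases. Mrps12 held 3 CCAAT boxes, at 108, 68 and 19 bases before the start. The NRF1 word GCGCATG was in 8 promoters (11.8%, against 4.03% of all promoters and 8.04% of those of protein-coding genes tested), 7 of them of large-subunit genes. The YY1 word ATGGCGG was in 13 (19.1%, against 4.2% and 9.94%). CCAAT was in 39.7%, against 37.7% and 38.6%, and the SP1 box GGGCGG in 48.5%, against 36.3% and 68.4%. TATAAA was in 5.88%, CACGTG in 7.35% and TGACGTCA in 2.94%, against 6.24%, 10.3% and 3.49% of the promoters of protein-coding genes tested. Words may overlap each other in a promoter, and a match is a description of letters, not a bound site. Among the 22 tested genes with the ETS core the median difference between genotypes was 0.142 on the log2 scale, against 0.055 among the 36 tested genes without it, a difference that was not tested. It was -0.0085 among the 7 tested genes with the NRF1 word and -0.0085 among the 9 with the YY1 word, against 0.071 and 0.092 without.

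Many of the genes lie back to back with a neighbour. Of the 77, 18 (23.4%) started within 1000 bp of a protein-coding gene that points away from them in GENCODE M21, against 6.78% of 21951 protein-coding genes. Many of those 21951 were too low to be tested here, and the share among tested genes was not computed. Pairs whose starts overlap, such as Mrps11 and Mrpl46, are not in these counts. Mrps12 starts 172 bp from Sars2, which encodes the mitochondrial seryl-tRNA synthetase. Mrpl49 starts 59 bp from Fau, which encodes a cytosolic ribosomal protein, and Mrpl32 75 bp from the proteasome gene Psma2. Partners could differ widely in level. Fau stood at 337, 403, 431 and 420 FPKM beside 2.66, 3.37, 3.28 and 3.29 FPKM for Mrpl49, and both were lowest in wild-type replicate 1. The 77 genes lie on 17 chromosomes, with 10 on chromosome 11, 8 on chromosome 17 and 6 on chromosome 7.

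No mitochondrial ribosomal protein gene differed between genotypes beyond the threshold. Of the 65 tested, 0 had an adjusted p under 0.05 by limma with Benjamini-Hochberg adjustment over all 10221 genes tested, against 0.342% of all genes tested (35 genes) and 0.142% of protein-coding genes. The lowest adjusted p among them was 0.158 by limma with Benjamini-Hochberg adjustment. At an unadjusted limma p under 0.05, 9 were higher in the knockout and 0 were lower. Those 9 are 13.8% of the 65, against 8.35% of all genes tested and 9.45% of protein-coding genes, and lower genes made up 9.56% and 4.07%. With 2 against 2 libraries, an exact two-sided permutation test of a single gene cannot go below 0.333. That count of 0 changed when a wild-type library was left out: limma without wild-type replicate 1 put 10 of the 66 genes then tested past the threshold, 5 of them higher. Without wild-type replicate 2 it put 23 of 65 past it, 22 of them higher. In those fits 25.97% and 28.8% of all genes passed, and the lone wild-type library was assumed to vary like the knockout libraries. Mrps12, Mrps34, Mrpl4 and Mrpl43 passed in both of those fits, though not with all libraries kept.

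The differences lay mostly above 0 and were small. The median log2 difference, knockout minus wild type on the log2(FPKM + 1) scale, was 0.071 over the 65 genes, against 0.018 over all genes tested and 0.041 over protein-coding genes. It was 0.109 over 43 large-subunit names and 0.031 over 22 small-subunit names. Of the 65 genes, 44 (67.7%) had a difference above 0, against 54.2% of all genes and 60.9% of protein-coding genes. In 28 (43.1%) both knockout libraries lay above both wild-type libraries, against 29.6% of all genes and 33.6% of protein-coding genes. In 4 (6.15%) both lay below, against 23.1% and 16.4%. Wild-type replicate 1 was the lowest of the 4 libraries in 39 genes (60.0%), against 38.6% of all genes and 42.9% of protein-coding genes. Erythroid markers and monocyte and macrophage markers were lowest in the same library, and their part in the result was not tested. Without wild-type replicate 1 the median over the genes was 0.037, against -0.0083 over all genes tested and 0.019 over protein-coding genes.

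Grouped by the place and history of the protein, the large-subunit proteins with bacterial counterparts had the highest median. Mrps18a and Mrps30 bear small-subunit names but sit in the large subunit, and Mrps36 is now known as a subunit of the 2-oxoglutarate dehydrogenase complex. The median was 0.137 over 26 large-subunit proteins with a bacterial counterpart, of which 6 had an unadjusted limma p under 0.05. It was 0.070 over 18 large-subunit proteins specific to mitochondria, with 1 such gene. In the small subunit it was 0.0050 over 12 with a bacterial counterpart and 0.065 over 7 specific to mitochondria, with 1 such gene in each class. These genes, all higher in the knockout, were 23.1%, 5.56%, 8.33% and 14.3% of the classes in that order. Of all genes tested 8.35% were higher at such a p, and of protein-coding genes 9.45%. Differences above 0 made up 61.5%, 83.3%, 58.3% and 71.4% of the classes, against 60.9% of protein-coding genes. The ranges of the 4 classes overlapped widely, and differences between the classes were not tested.

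**Figure D2:**
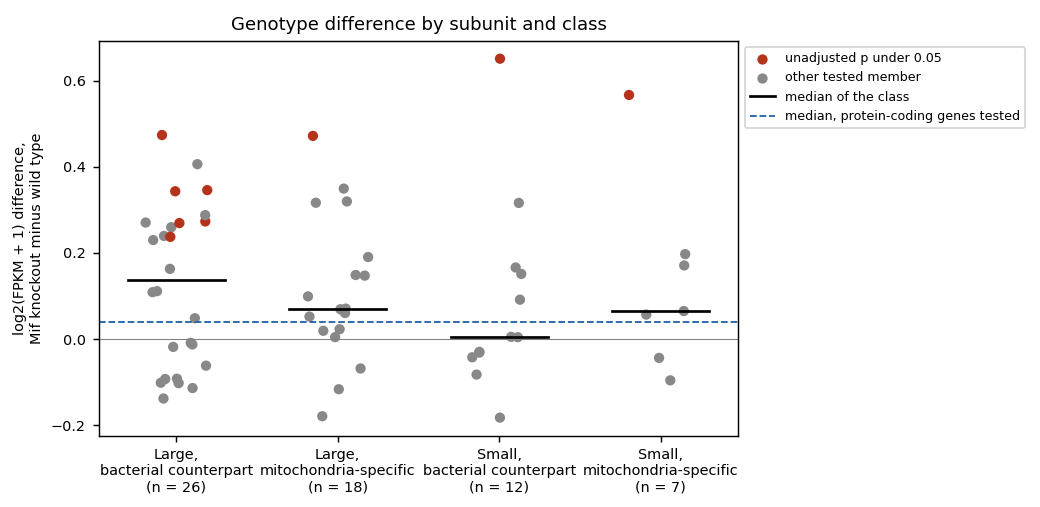
Log2(FPKM + 1) difference, knockout minus wild type, of 63 tested mitochondrial ribosomal protein genes by subunit and class (26, 18, 12 and 7 genes, leaving out Mrps18a and Mrps36). Points are genes, red where the unadjusted limma p is under 0.05, black bars are class medians from 0.0050 to 0.137, and the dashed line is the median of protein-coding genes tested, 0.041.

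In the decoding centre, Mrps12 had the largest difference of all 65 genes. Mrps12 (ENSMUSG00000045948, chr7:28739641-28741820, minus strand, GRCm38) encodes the counterpart of bacterial S12, which checks the pairing of codon and anticodon. Its level was 1.31 and 2.49 FPKM in wild type against 3.49 and 3.42 in the knockout. The knockout libraries were close together and above both wild-type libraries, which were themselves far apart. The log2 difference was 0.65 ± 0.21 (SE, n = 2 libraries a genotype; limma with Benjamini-Hochberg adjusted p = 0.222). Mrps34 (ENSMUSG00000038880, chr17:24895116-24897502, plus strand), a small-subunit protein specific to mitochondria, showed the same order. Its values were 0.687, 1.44, 1.86 and 2.16 FPKM, with a log2 difference of 0.57 ± 0.20 (SE; limma with Benjamini-Hochberg adjusted p = 0.252). An exon of Mrps34 overlaps one of Mapk8ip3 on the opposite strand by 971 bp and one of Nme3 on the same strand by 289 bp. The library kit keeps the strand, but how the authors set it in quantification is not given, and reads of overlapping genes may not have been told apart.

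Around the exit tunnel, Mrpl4 lay higher in both knockout libraries. Mrpl4, whose bacterial counterpart lines the tunnel wall (chr9:21002738-21008839, plus strand), stood at 4.31, 4.58, 5.96 and 5.88 FPKM. Both wild-type libraries lay well below both knockout libraries, and the log2 difference was 0.35 ± 0.08 (SE; limma with Benjamini-Hochberg adjusted p = 0.158). A correction for GC content and transcript length, chosen after the data were seen, lowered that difference to 0.17. Mrpl17 stood at 1.50, 1.78, 3.03 and 2.03 FPKM, with a difference of 0.41, which was 0.20 without knockout replicate 1 and 0.61 without knockout replicate 2. Mrpl22, Mrpl23 and Mrpl24, at the tunnel's exit, had log2 differences of -0.092, 0.049 and -0.14, and their groups overlapped. With wild-type replicate 1 left out that of Mrpl24 was -0.33, and with replicate 2 left out it was 0.057. Mrpl45, which tethers the ribosome to the inner membrane, stood at 9.18, 9.21, 10.6 and 10.03 FPKM, with the knockout libraries above and a difference of 0.15 ± 0.08 (SE).

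Other large-subunit proteins followed the pattern of Mrps12. Mrpl43 (ENSMUSG00000025208, chr19:45004829-45006442, minus strand), specific to mitochondria, had 1 transcript and stood at 9.04, 10.98, 14.4 and 14.1 FPKM. Its groups did not overlap, and its log2 difference was 0.47 ± 0.11 (SE; limma with Benjamini-Hochberg adjusted p = 0.158), among the lowest adjusted p of the 65. An exon overlaps by 358 bp one of Twnk, the mitochondrial DNA helicase on the opposite strand, which stood at 0.866, 1.09, 0.792 and 0.959 FPKM. Mrpl34, with a bacterial counterpart, stood at 2.04, 3.01, 4.13 and 3.58 FPKM (0.47 ± 0.16, SE). Mrpl57, specific to mitochondria, stood at 2.42, 3.42, 4.28 and 3.65 FPKM (0.35 ± 0.16, SE). For both genes wild-type replicate 1 was the lowest library. Without it the difference was 0.28 for Mrpl34 and 0.16 for Mrpl57, against 0.67 and 0.53 without wild-type replicate 2. Mrpl36, whose bacterial counterpart is among the smallest ribosomal proteins, stood at 3.93, 4.79, 5.76 and 5.79 FPKM (0.34 ± 0.11, SE), both wild-type libraries below. Without wild-type replicate 1, the difference was 0.23 for Mrpl36, 0.35 for Mrps12 and 0.30 for Mrps34, against 0.46, 0.95 and 0.83 without wild-type replicate 2.

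**Figure D3:**
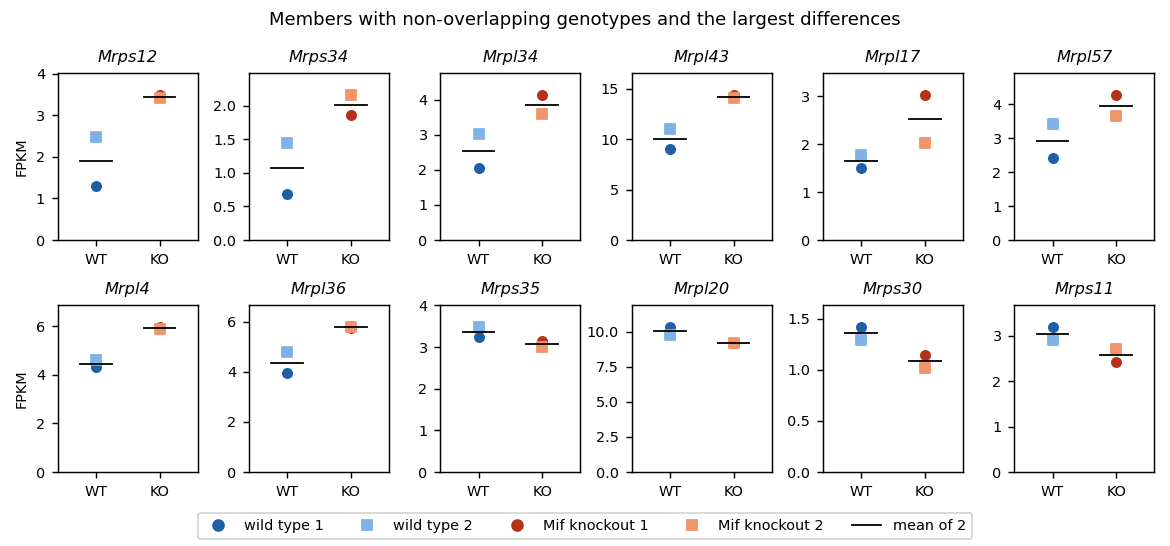
FPKM of the 12 tested genes with non-overlapping genotypes and the largest differences, 8 higher and 4 lower in the knockout, each on its own axis from 0. Points are libraries and bars the mean of 2; wild-type replicate 1 is the lowest library in all 8 of the higher genes, as in Mrps12 at 1.31 FPKM.

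Along the stalk, which draws translation factors to the ribosome, Mrpl10 was higher in both knockout libraries. Mrpl10, at the base of the stalk, stood at 12.4, 13.1, 15.3 and 15.98 FPKM (0.27 ± 0.08, SE). Mrpl12, the stalk protein that also binds the mitochondrial RNA polymerase, stood at 0.794, 1.19, 1.29 and 1.36 FPKM (0.23 ± 0.14, SE); with wild-type replicate 1 left out its difference was 0.086, and with replicate 2 left out 0.37. Mrpl11, also of the stalk base, stood at 0.477, 0.338, 0.418 and 0.475 FPKM and was too low to be tested. The remaining genes with an unadjusted limma p under 0.05 were Mrpl18 and Mrpl19, both large-subunit proteins with bacterial counterparts, with differences of 0.24 and 0.27. None of these passed the threshold after adjustment.

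In 4 of the tested genes both knockout libraries lay below both wild-type libraries. Mrps11, a platform protein of the small subunit (ENSMUSG00000030611, chr7:78783119-78792989, plus strand), stood at 3.20, 2.90, 2.42 and 2.72 FPKM (-0.18 ± 0.10, SE). Mrps30, in the large subunit despite its name, stood at 1.42, 1.30, 1.148 and 1.021 FPKM (-0.18 ± 0.10, SE). Mrpl20 stood at 10.4, 9.75, 9.20 and 9.23 FPKM, and Mrps35 at 3.23, 3.49, 3.15 and 3.004. The limma adjusted p with Benjamini-Hochberg adjustment lay between 0.404 and 0.606 for the 4 genes. An exon of Mrps11 overlaps one of Mrpl46, on the opposite strand, by 173 bp, and Mrpl46 stood at 1.52, 2.29, 2.06 and 1.94 FPKM.

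The S18 paralogues sit at different places of the ribosome, and none passed the threshold. Mrps18a, in the large subunit, stood at 4.95, 5.29, 5.94 and 5.51 FPKM (0.14 ± 0.09, SE), with the knockout libraries just above. Mrps18b, in the small subunit, stood at 0.610, 0.817, 0.791 and 0.862 FPKM and was not tested. The log2 difference of Mrps18c was 0.0046 ± 0.13 (SE). Mrps36 stood at 1.37, 1.76, 1.36 and 1.50 FPKM, with overlapping groups. The 12 genes not tested for low level were Mrpl11, Mrpl16, Mrpl35, Mrpl38, Mrpl47, Mrps2, Mrps5, Mrps6, Mrps18b, Mrps25, Mrps27 and Mrps28. Among these, Mrps5 stood at 0.435, 1.22, 0.376 and 0.408 FPKM, apart in wild-type replicate 2 and with both knockout libraries below both wild-type libraries.

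Most of the summed level came from transcripts annotated as protein coding, and the balance within a few genes differed between libraries. Protein-coding transcripts supplied 84.6%, 81.8%, 87.7% and 85.9% of the genes' FPKM, and retained-intron transcripts 9.13%, 12.1%, 7.40% and 8.41%. The retained-intron share was higher in both wild-type libraries than in both knockout libraries, while the retained-intron level, at 40.9, 60.5, 36.5 and 42.9 FPKM, overlapped. Of 48 tested genes whose coding share differed by any amount, 18 had both knockout shares above both wild-type shares, against 51.2% of 5562 protein-coding genes. In 7 both lay below, against 7.93%. The 48 include genes at 100% in every library, whose shares differed only by rounding in the calculation. The following 4, with the largest differences in share among those tested, were chosen after their values were seen. Mrpl52 had a coding share of 26.3% and 63.9% in wild type and of 98.7% and 97.5% in the knockout. Mrps10 had 67.0%, 25.1%, 79.5% and 87.4%. Mrpl13 went the other way, from 97.6% and 96.9% in wild type to 68.5% and 56.5%. In the knockout libraries a transcript of Mrpl13 annotated for nonsense-mediated decay, listed at 0 in both wild-type libraries, was listed at 1.31 and 2.31 FPKM. Mrps24 had 98.8%, 0%, 6.69% and 3.99%, so that the coding form made up most of the gene in wild-type replicate 1 alone. These shares are estimates that divide reads among overlapping transcripts, and depth, which differed with genotype, was not separated from them.

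**Figure D4:**
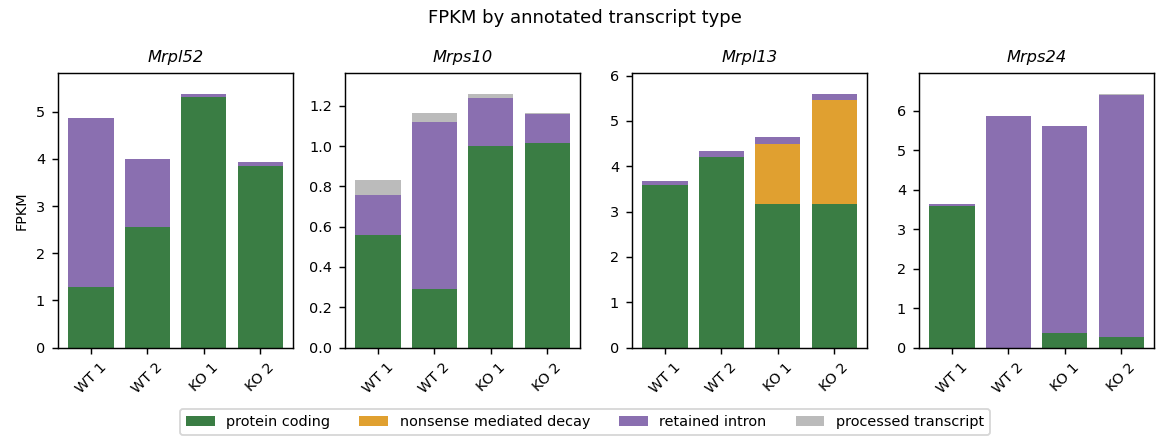
FPKM by annotated transcript type in each library for Mrpl52, Mrps10, Mrpl13 and Mrps24, as stacked bars from 0. The coding share of Mrpl52 is 26.3% and 63.9% in wild type against 98.7% and 97.5% in the knockout, and that of Mrps24 is 98.8% in wild-type replicate 1 against 6.69% or less in the other libraries.

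Transcript by transcript, the authors' deposited table gave no call either. Of 277 transcripts of these genes with a p-value in the authors' deposited table, 0 had a q-value under 0.05, and the lowest was 0.121. A p-value under 0.05 stood beside 32 of them (11.6%) in the authors' deposited table, 16 higher and 16 lower in the knockout, against 11.1% of all transcripts. Among protein-coding transcripts 10 of these were higher and 6 lower, and among other types 6 were higher and 10 lower. Mrpl33, the most abundant gene, rested on a main coding transcript at 84.3, 84.4, 91.9 and 98.8 FPKM, higher in both knockout libraries. Several of the 16 lower transcripts were other transcripts of Mrpl33. At the gene level its 4 libraries did not separate the genotypes.

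Genes that serve the same ribosome did not pass the threshold in any list examined with all libraries kept; limma without wild-type replicate 1 put 15 of 66 tested genes of these lists (22.7%) past it, and without wild-type replicate 2 it put 23 of 64 (35.9%). All genes tested passed at 25.97% and 28.8% in those fits. With all libraries kept, 8.35% of all genes tested were higher and 9.56% lower at an unadjusted limma p under 0.05. For protein-coding genes these shares were 9.45% and 4.07%. Of 5 tested subunits that carry other names, 2 had such a p, both higher. The other 3 had a difference below 0, and the list median was -0.0013. Chchd1, among these 3, stood at 6.19, 5.30, 4.69 and 5.06 FPKM, with both knockout libraries below both wild-type libraries. Mrpl58, named Ict1 in the table, frees stalled ribosomes by cutting the peptide from its tRNA; it stood at 1.01, 1.05, 1.91 and 1.78 FPKM (0.48 ± 0.10, SE; limma with Benjamini-Hochberg adjusted p = 0.134). Aurkaip1, a small-subunit protein, stood at 16.9, 20.8, 24.3 and 22.7 FPKM. In both, all knockout libraries were above all wild-type libraries. Of 13 tested assembly factors, Ngrn was higher, at 7.82, 8.46, 9.93 and 10.04 FPKM, and Trub2, a pseudouridine synthase, was lower, at 14.0, 11.4, 9.53 and 9.99 FPKM, each at an unadjusted limma p under 0.05. The median over the 13 was -0.039. Of 8 tested translation factors, 0 had such a p; the elongation factor Tufm stood at 3.99, 3.23, 4.53 and 4.50 FPKM, and the list median was 0.14. The list of transcription and RNA stability factors also held Polg and Polg2, genes of the mitochondrial DNA polymerase. Of its 7 tested genes, Polg2 alone had such a p, and it was lower, at 2.15, 2.63, 1.49 and 1.87 FPKM. Among 7 tested regulators of mitochondrial gene expression, Tfeb alone had such a p, and it was higher. With wild-type replicate 1 left out, the difference moved from 0.31 to 0.17 for Aurkaip1, from -0.34 to -0.20 for Trub2 and from 0.25 to 0.15 for Tfeb. Nrf1, which binds the NRF1 word, stood at 21.3, 19.4, 17.1 and 17.7 FPKM and Gabpa, the DNA-binding part of GABP, at 11.7, 10.9, 12.6 and 13.2 FPKM.

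The messenger RNAs that these ribosomes translate lay on the other side of 0. All 13 mitochondrially encoded messenger RNAs had a negative difference, with a median of -0.27, and 6 had an unadjusted limma p under 0.05, against 9.56% of all genes tested and 4.07% of protein-coding genes lower at such a p. None passed after adjustment with all libraries kept. The list summed to 1516, 1297, 1262 and 1339 FPKM, so wild-type replicate 2 lay between the knockout libraries, and the groups overlapped for mt-Co1, mt-Co3, mt-Nd3, mt-Nd5 and mt-Nd6. The cytochrome b transcript mt-Cytb stood at 78.4, 78.1, 61.7 and 62.3 FPKM (-0.33 ± 0.07, SE; limma with Benjamini-Hochberg adjusted p = 0.131). Both wild-type libraries were above both knockout libraries, and the replicates were close. Of the NADH dehydrogenase subunits, mt-Nd1 stood at 20.7, 20.2, 15.7 and 15.9 FPKM and mt-Nd4l at 9.14, 8.10, 6.07 and 6.42 FPKM. The ribosome's own RNAs, mt-Rnr1 and mt-Rnr2, are removed by kits that deplete ribosomal RNA, so their values, 152, 113, 102 and 78.3 FPKM and 52.9, 19.2, 20.5 and 18.5 FPKM, also carry that step.

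**Figure D5:**
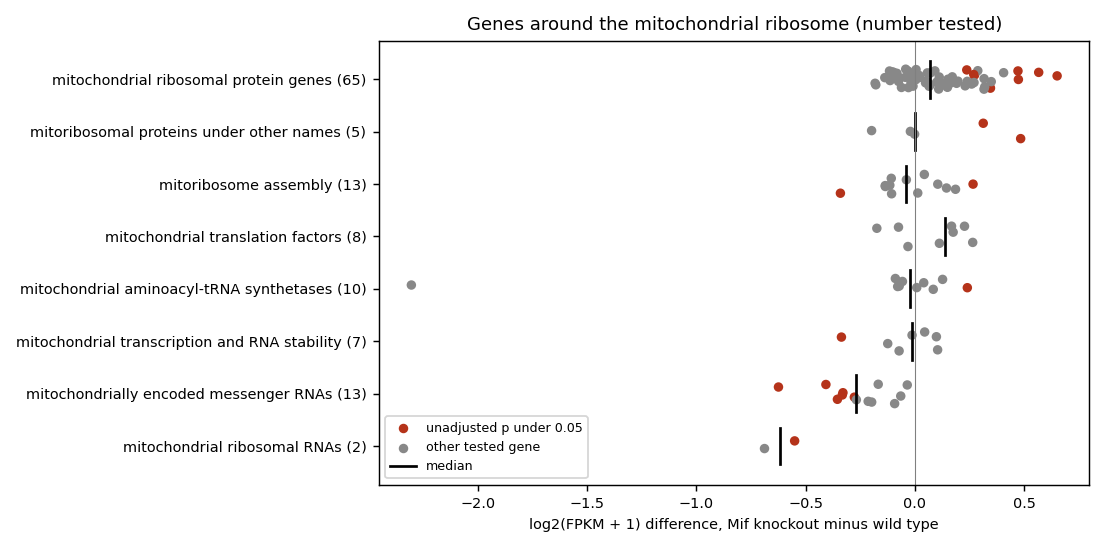
Log2(FPKM + 1) difference, knockout minus wild type, of tested genes in lists around the mitochondrial ribosome, 1 list a row with the number tested. Points are genes, red at an unadjusted limma p under 0.05. Bars are medians, from 0.14 over the 8 translation factors to -0.62 over the 2 mitochondrial ribosomal RNAs. The median was 0.071 over the 65 ribosomal protein genes and -0.27 over the 13 mitochondrially encoded messenger RNAs.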

How the data were processed

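Total RNA was depleted of ribosomal RNA and sequenced as 100 bp paired reads from 50 ng a sample, per the labels' protocols. The authors deposited FPKM values per transcript and library, made, per the submitters' processing notes, with StringTie 2.1.4, HISAT2 2.1.0, SAMtools 1.9 and R 3.6.1 on GRCm38, whose order and roles the notes do not state. For annotation release, filters and strand setting nothing is given in the sources used here. The deposited table also holds the authors' fold ratio, p-value and q-value per transcript, used only to describe their comparison.

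FPKM was summed by gene and analysed as log2(FPKM + 1), which understates differences of low genes. A gene whose mean reached 1 FPKM in a genotype entered the test, limma 3.58.1 under R 4.3.3 (trended empirical Bayes, no covariates, 2 against 2 libraries, Benjamini-Hochberg threshold 0.05). On data simulated for this comparison over 10221 genes, limma called 27.4% of genes changed 1.5-fold and 84.8% of those changed 2-fold. Of all its calls, 4.03% were unchanged genes. Only genes with a mean log2(FPKM + 1) above 2 were changed, so these rates do not cover lower genes such as Mrps12 and Mrps34. Every library was given the same spread, whereas the replicates' log2 differences had an SD of 0.34 in wild type and 0.15 in the knockout. Gene positions and overlaps came from GENCODE M21, which shares the build. Alternatives changed 1 choice at a time: pseudocount, filter, scaling, transcript choice, moderation, a replicate block, and each library left out. Unused per-sample columns numbered 0.

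The genes, lists and tests were chosen with earlier results of these data known. Genes named in the text are those with the largest differences and non-overlapping genotypes (up to 8 a direction), the 5 highest and 5 lowest by mean, all not tested, fixed members by role, and up to 3 genes a list by p. Mrpl18, Mrpl19, Mrpl52, Mrpl13, Mrps10 and Mrps24 are outside that rule and were chosen after their values were seen. Mrpl9, Mrpl32, Mrpl46, Mrpl48 and Mrpl49 are named for their promoters, neighbours or copies. The tally of settings does not cover these genes. The head-to-head window was 1000 bp. A few items that the rule or the lists cover are not reported here.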

Additional observations from a re-analysis of the deposited data

How the results depend on the processing

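The count of mitochondrial ribosomal protein genes past the threshold was 0 in all settings but the 2 fits that leave out a wild-type library, for a range of 0 to 23 when each library was left out. The same range, 0 to 23, held for the genes of the surrounding lists. Leaving out either knockout library left 0 of all genes past it. The median difference over the genes was 0.14 with a filter of 5 FPKM, 0.11 with quantile normalisation, 0.027 with TPM scaling, where it was -0.051 over all genes tested, and between 0.037 and 0.15 when each library was left out. For large-subunit names it was 0.19 with that filter, 0.044 with TPM scaling and between 0.092 and 0.21 by library left out, and for small-subunit names between -0.033 and 0.12. Genes higher at an unadjusted limma p under 0.05 numbered 5 with the 5 FPKM filter, 5 with TPM scaling and 1 to 28 by library left out. Those lower numbered 1 with protein-coding transcripts, 2 with the highest transcript of a gene and 0 to 7 by library left out. Of all genes tested, 9.36% were higher at such a p with the 5 FPKM filter and 4.09% with TPM scaling. Other settings raised the count above the 9 of 65 given earlier. It was 13 with quantile normalisation, 12 with protein-coding transcripts, 11 with only protein-coding genes tested and 10 with GC and length correction. The last 2 settings were chosen after the data were seen. In these 4 settings 9.30%, 13.0%, 10.4% and 8.93% of all genes tested were higher. The largest counts by library left out came with raised shares of all genes. Without wild-type replicate 2, 22.1% of all genes were higher, and without wild-type replicate 1, 22.6% were lower. With all libraries kept these shares were 8.35% and 9.56%. Genes with both knockout libraries above numbered 13 with the 5 FPKM filter, which leaves 22 genes tested. Those with both below numbered 1 with that filter, 10 when scaled to the protein-coding sum, 10 with TPM scaling and 9 with the highest transcript. By library left out they numbered 7 to 23, but for a given gene 1 library against 2 can only keep or add such separation. The median difference over all genes tested was -0.011 when scaled to the protein-coding sum and -0.051 with TPM scaling. It was 0.027 with the 5 FPKM filter, 0.012 with quantile normalisation and between -0.0083 and 0.042 when each library was left out. Shares of all genes with non-overlapping groups in these settings are not given here.

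Over 17 alternative settings and 46 named genes, 23 of 757 differences changed sign, 14 of them with all libraries kept, and 39 crossed the threshold, each in a fit without a library. Mrps18c became -0.027 when scaled to the protein-coding sum, -0.016 with quantile normalisation, -0.067 with TPM scaling, -0.036 with protein-coding transcripts and -0.016 with the highest transcript. With protein-coding transcripts and with the highest transcript, in that order, Mrpl33 became 0.17 and 0.17 and Polg 0.22 and 0.23. With the highest transcript Slirp became -0.33 and Nrf1 0.23. Correcting for GC content and transcript length, a setting chosen after seeing the data, gave -0.031 for Mrpl23, 0.050 for Mrps21 and 0.10 for Mrpl33. By library left out, signs changed within -0.15 to 0.16 for Mrps18c, -0.33 to 0.057 for Mrpl24, -0.059 to 8.2e-05 for Mrps21, -0.18 to 0.034 for Mrps36, -0.083 to 0.059 for Mrpl33, -0.00091 to 0.20 for Slirp and -1.4 to 0.020 for mt-Rnr2. The causes were not tested.

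The labels share only a replicate number, and the WT and knockout replicate differences correlated at 0.0065 across genes. The replicate block left 0 of the 65 genes past the threshold and 8 higher at an unadjusted p under 0.05, and 34 of all genes passed against 35. The replicates' log2 differences had an SD of 0.34 in wild type and 0.15 in the knockout, and 2 libraries a group limit the precision.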

Other observations

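Among genes that serve mitochondrial translation, wild-type replicate 1 stood apart in 2 values. Lars2, the mitochondrial leucyl-tRNA synthetase, was listed at 45.5 FPKM in that library, at 2.11 FPKM in wild-type replicate 2, and at 1.51 and 1.36 FPKM in the knockout libraries, all from 1 transcript. The mitochondrial 16S ribosomal RNA mt-Rnr2 stood at 52.9 FPKM there and between 18.5 and 20.5 FPKM in the other libraries.

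Of the pseudogene names left out by the rule, Mrpl48-ps had the highest level, at 1.29, 1.26, 1.36 and 1.47 FPKM, beside 2.84, 2.66, 2.63 and 3.75 FPKM for Mrpl48. Mrps36-ps3 was listed at 0 in all 4 libraries. The coactivator Ppargc1a, known for driving mitochondrial biogenesis in other tissues, was also listed at 0 in all 4.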
